A study of Homo sapiens with 6 samples.

Results

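RAI2 was examined with CTBP1 and CTBP2, genes of the corepressors it binds, in LNCaP prostate cancer cells and an enzalutamide-resistant derivative. The genes were the rows of the deposited table named RAI2, CTBP1 or CTBP2, which are 3 of 35554 genes, and all 3 were among the 19711 genes with enough counts to be tested. They were selected because RAI2 differed between the lines in these same counts, so their own differences are given as a description, without a test. LNCaP is an established line from a lymph node metastasis of human prostate cancer that grows in response to androgens, and enzalutamide is a drug that blocks the androgen receptor. LNCaP-enzaR is a resistant line selected from LNCaP by prolonged exposure to enzalutamide, with a smaller dose used for its upkeep. It is 1 derived line without an independent counterpart. The labels give 3 biological replicates (flasks) of parental LNCaP and 3 of LNCaP-enzaR and do not state whether the drug was present at harvest. Polyadenylated RNA was sequenced, and the total counts were between 77759122 and 98616465 per library.

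CtBP proteins are corepressors that do not bind DNA themselves. They are recruited by transcription factors carrying a short peptide written P-x-D-L-S, in which x is any residue, and they bring histone deacetylases, demethylases and methyltransferases to the gene. CTBP1 and CTBP2 encode the 2 vertebrate CtBP proteins, which fold like NAD-dependent dehydrogenases, and CTBP2 also encodes RIBEYE, a protein of sensory synapses made from another promoter. RAI2 (retinoic acid induced 2) encodes a nuclear protein that binds CtBP through a variant of this peptide, and its loss has been associated with early spread of breast cancer cells.

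The coding sequences of canonical transcripts were searched for the peptide in frame, to see what the members share with other partners of CtBP. None of the 3 members held P-x-D-L-S, which was found in 267 of 19820 coding sequences (1.35%). The variant A-L-D-L-S occurred at 2 places in RAI2, codons 316 to 320 and 342 to 346 of 530 (transcript ENST00000451717.6). Both lie in a coding exon on the minus strand of the X chromosome in GRCh38, at chrX:17801039-17801077 and chrX:17800961-17800999. They are shown with the corresponding sites of 3 transcription factors described below, from MECOM (chr3:169115532-169115570, minus strand), GLIS2 (chr16:4337069-4337107, plus strand) and KLF12 (chr13:73846230-73846268, minus strand), with the 5 codons of the peptide in capitals.
RAI2 first site: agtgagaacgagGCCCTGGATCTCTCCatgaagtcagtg
RAI2 second site: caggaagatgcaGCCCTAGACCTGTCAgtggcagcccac
MECOM site: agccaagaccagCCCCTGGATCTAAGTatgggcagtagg
GLIS2 site: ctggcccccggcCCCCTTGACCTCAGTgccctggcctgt
KLF12 site: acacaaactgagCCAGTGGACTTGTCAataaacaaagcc
Either P-L-D-L-S or A-L-D-L-S was found in 79 of 19820 coding sequences (0.399%). More than 1 such site was present in 3 of them, FBXL19, RAI2 and RYR3. Of 23 listed CtBP-binding factors, 16 held P-x-D-L-S (69.6%), a list that is in part made of proteins known by this peptide. It was found in 1 of 14 genes of the CtBP complex (ZNF516). A match of these letters is a description of the sequence and not a measurement of binding.

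RAI2 (ENSG00000131831.18) lies on the minus strand of chrX:17800049-17861337. The promoter window nearest to the start of the gene in RefSeq (GRCh38.p14, chrX:17861249-17861548, minus strand) is shown because RAI2 is the member with the largest difference between the lines. It covers 250 bases before and 50 bases after the transcription start, with CG dinucleotides in capitals.
RAI2 promoter: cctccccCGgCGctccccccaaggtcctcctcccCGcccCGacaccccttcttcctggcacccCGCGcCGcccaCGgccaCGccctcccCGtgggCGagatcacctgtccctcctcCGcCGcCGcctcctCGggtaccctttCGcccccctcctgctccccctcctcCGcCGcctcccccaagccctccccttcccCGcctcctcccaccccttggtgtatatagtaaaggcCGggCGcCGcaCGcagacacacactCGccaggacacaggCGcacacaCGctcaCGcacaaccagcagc
This window held 27 CG dinucleotides, a number reached by 28.2% of 35116 promoters of the same length, for which the median was 14. The CTBP2 window also held 27 and the CTBP1 window 21. CACCTG, searched on both strands, occurred once in the RAI2 window and in neither CtBP window, and 20.6% of all promoters held it. TGTTCT, searched on both strands, was in none of the 3 windows, and 14.8% of all promoters held it. The same was true of AGGTCA (13.8% of all promoters). It was also true of TATAAA (11.5% of all promoters). DNA methylation and binding of factors were not measured in these samples.

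RAI2 was at a low level in parental cells and well expressed in resistant cells. Its read counts in parental LNCaP were 69, 84 and 60. In LNCaP-enzaR they were 6618, 6349 and 7103. All resistant counts thus exceeded all parental counts. Scaled to 1000000 counts of the normalised library (CPM), these were 0.745, 0.923 and 0.764 in parental libraries. The resistant libraries held 76.7, 71.9 and 71.6 CPM. Every resistant library was far above every parental library, and the spread within each line was small beside the distance between them. The mean was 0.811 ± 0.0979 CPM (SD, n = 3) in LNCaP and 73.4 ± 2.87 CPM (SD, n = 3) in LNCaP-enzaR. The fitted difference was 6.49 on the log2 scale (SE 0.10), or 90.2-fold. Of all tested genes, 99.3% had a lower log2 fold change. The parental counts were above the floor of 3 counts, which corresponded to 0.0302 to 0.0382 CPM across libraries and covers counting error only. No exonic base of RAI2 lay in an exon of another gene, and no stretch of 75 bases of its transcripts was shared with another gene.

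CTBP2, the corepressor with the larger difference, was lower in resistant cells. CTBP2 (ENSG00000175029.17, chr10:124984317-125161170, minus strand) had counts of 13413, 12967 and 11015 in parental LNCaP. In LNCaP-enzaR the counts were 5235, 5337 and 5884. These corresponded to 144.9, 142.6 and 140.2 CPM in parental cells and to 60.7, 60.4 and 59.3 CPM in resistant cells. The lines did not overlap, and libraries of the same line were within a few CPM of each other. The log2 fold change was -1.25 (SE 0.05), which is 2.37-fold lower in LNCaP-enzaR, from 142.6 ± 2.35 to 60.1 ± 0.732 CPM (SD, n = 3 each). The locus is crowded. Exons of other genes covered 34.2% of its exonic bases, mainly those of ZRANB1, which encodes a deubiquitinase and runs on the opposite strand. The setting for strand is not given in the sources used here, so reads from this overlap cannot be assigned to 1 of the 2 genes. ZRANB1 itself was at 18.3 ± 0.690 CPM in LNCaP and 17.2 ± 0.487 CPM in LNCaP-enzaR, a log2 difference of -0.09 (SE 0.07, adjusted p = 0.259, edgeR's quasi-likelihood test with Benjamini-Hochberg adjustment) whose sign turned under upper-quartile scaling (0.01). Counts per gene do not separate CTBP2 from RIBEYE transcripts. Reads shared with processed pseudogenes of CTBP2 are also uncertain, although the 5 pseudogenes in the table had at most 13 counts in any library and none was tested.

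CTBP1 differed less. CTBP1 (ENSG00000159692.16, chr4:1211445-1249953, minus strand) had counts of 14993, 15282 and 12421 in LNCaP, and of 13135, 12181 and 13570 in LNCaP-enzaR. Parental libraries held 162.0, 168.0 and 158.1 CPM. Resistant libraries held 152.2, 137.9 and 136.8 CPM. The lines did not overlap, but the lowest parental and the highest resistant library were close to each other. From 162.7 ± 4.98 to 142.3 ± 8.61 CPM (SD, n = 3 each), the log2 fold change was -0.19 (SE 0.06), or 1.14-fold lower. It was -0.09 under upper-quartile scaling, which moved the median of all genes by 0.10. In bulk RNA, fewer cells expressing a gene and less RNA per cell cannot be told apart, and this holds for each gene described here.

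**Figure D1:**
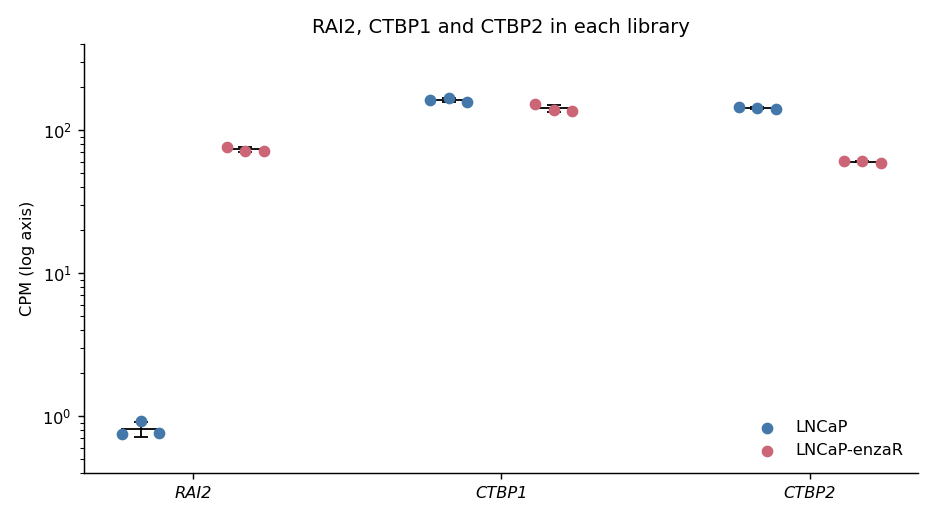
RAI2, CTBP1 and CTBP2 in each library, in CPM on a log axis. Points are the 3 libraries of LNCaP (blue) and of LNCaP-enzaR (red), the horizontal line is the mean and the bars are SD. RAI2 lies at a mean of 0.811 and 73.4 CPM, CTBP2 at 142.6 and 60.1 CPM and CTBP1 at 162.7 and 142.3 CPM.

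A gene was called when its adjusted p did not exceed 0.05 and the lines differed at least 1.5-fold. By this measure, 42.7% of all tested genes were called, with 23.3% higher and 19.5% lower in LNCaP-enzaR. By these limits RAI2 was among the higher and CTBP2 among the lower genes, while CTBP1 was under the fold limit. The CPM of the lines did not overlap for all 3 members and for 70.6% of all tested genes. Because the members were selected on this contrast, nothing is read from these counts.

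Levels of different genes were compared per length only, as CPM per kilobase of exon, with overlapping exons of all transcripts merged. In parental LNCaP the order was CTBP1 at 15.4 ± 0.472, CTBP2 at 12.8 ± 0.211 and RAI2 at 0.309 ± 0.0373 CPM per kilobase (SD, n = 3). In LNCaP-enzaR it was RAI2 at 28.0 ± 1.09, CTBP1 at 13.5 ± 0.817 and CTBP2 at 5.42 ± 0.0659 CPM per kilobase (SD, n = 3). Neighbours in both orders were further apart than their SD. The order of RAI2 and CTBP1 in resistant cells depended on the length used. Per kilobase of the longest transcript, CTBP1 was at 33.5 ± 2.03 and RAI2 at 30.3 ± 1.18 CPM per kilobase (SD, n = 3), since the merged exons of CTBP1 span 10541 bases and its longest transcript 4250.

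**Figure D2:**
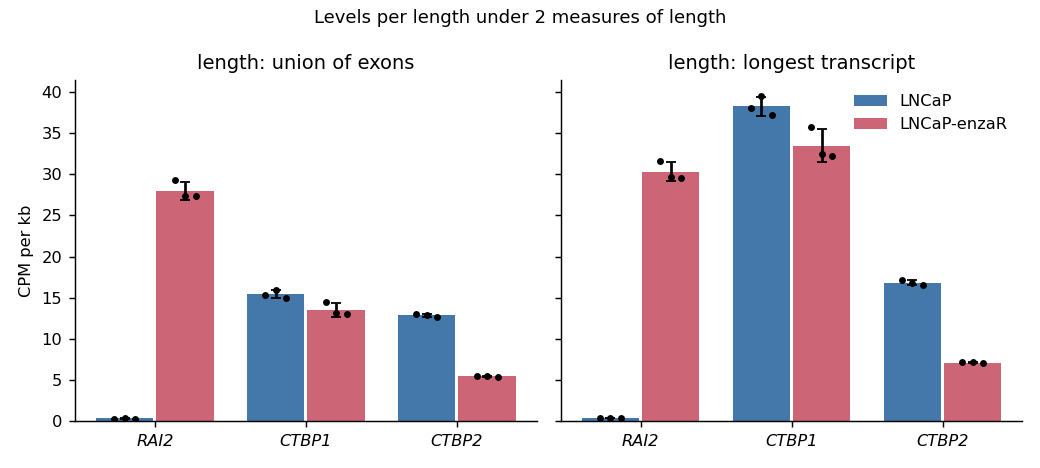
Levels of the 3 genes in CPM per kilobase, with length taken as the merged exons (left) or the longest transcript (right). Bars are means of 3 libraries, points are libraries and error bars are SD. RAI2 in LNCaP-enzaR is above both CtBP genes on the left (28.0) and below CTBP1 on the right (30.3 against 33.5).

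The balance of the corepressors also differed between the lines. By merged exons, the ratio of CTBP2 to CTBP1 was 0.850, 0.806 and 0.842 in parental libraries. It was 0.379, 0.416 and 0.412 in resistant libraries. CTBP2 thus made up 45.4% ± 0.702 of the summed CtBP level in LNCaP and 28.7% ± 1.06 in LNCaP-enzaR (SD, n = 3), with no overlap of the lines. The summed level of CTBP1 and CTBP2 was 28.3 ± 0.587 CPM per kilobase in LNCaP and 18.9 ± 0.863 in LNCaP-enzaR (SD, n = 3). Relative to this sum, RAI2 was at 0.0109 ± 0.00117 in parental cells and at 1.48 ± 0.0106 in resistant cells (SD, n = 3). By the longest transcript the latter was 0.747. These are ratios of RNA, and protein was not measured.

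RNA from the other strand of the CTBP1 locus was examined next. CTBP1-AS (ENSG00000280927.1, chr4:1210120-1218591, plus strand) is an antisense RNA at the end of CTBP1. It had 327, 392 and 392 counts in LNCaP and 803, 669 and 769 in LNCaP-enzaR. All resistant libraries were above all parental ones. Its level rose from 4.28 ± 0.729 to 8.21 ± 0.953 CPM (SD, n = 3 in each line). This was a log2 difference of 0.94 (SE 0.13) and passed the test (adjusted p = 1.83e-05 by edgeR). Since 20.8% of its exonic bases lie in CTBP1 exons and the strand setting is not given, its reads and those of CTBP1 cannot be told apart there. CTBP1-DT, the divergent transcript at the start of CTBP1, was at 81.8 ± 3.38 CPM in LNCaP and 89.7 ± 4.47 CPM in LNCaP-enzaR, and did not pass the test (log2 fold change 0.13, SE 0.06, adjusted p = 0.0640 by edgeR).

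The enzymes and scaffolds that CtBP assembles were called about as often as other genes. Of 14 complex genes, all of which were tested, 2 rose and 3 fell in LNCaP-enzaR and 9 were not called, which is 35.7% called against 42.7% of all genes. Their median log2 fold change was -0.37, and that of all tested genes was 0.01. HDAC2, a histone deacetylase, fell from 244 ± 5.39 to 126 ± 4.66 CPM, or by -0.95 on the log2 scale (SE 0.05, adjusted p = 1.06e-09). KDM1A, the lysine demethylase of the complex, fell from 150.3 ± 3.02 to 78.7 ± 2.51 CPM (-0.93, SE 0.05, adjusted p = 1.57e-09). RCOR3, a scaffold of the CoREST family, rose from 35.6 ± 1.85 to 56.9 ± 3.86 CPM (0.68, SE 0.07, adjusted p = 7.57e-07). EHMT1, a histone methyltransferase, was below the fold limit at 102 ± 2.55 and 70.4 ± 3.25 CPM (-0.53). The other called genes, named after their values were seen, were ZMYM2 (-0.63), which was under the fold limit without the first resistant library (-0.56), and ZNF516. ZNF516 had 8, 0 and 6 counts in LNCaP and 33, 54 and 34 in LNCaP-enzaR, and its log2 fold change of 3.02 was 2.42 without the second parental library. HDAC1, the closest relative of HDAC2, was at a log2 fold change of -0.23 and WIZ, a zinc finger partner of the methyltransferases, at 0.02, and both were also named after their values were seen.

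Factors that recruit CtBP moved in both directions. Of 23 listed factors, 17 were tested, of which 7 rose, 4 fell and 6 were not called (64.7% called, against 42.7% of all genes), with a median log2 fold change of 0.34. ZEB1, ZEB2, IKZF1, PRDM16 and ZNF750 were too low to be tested, and no row of the counts was named ZNF366. BCL6, a zinc finger repressor of germinal centre B cells, rose from 24.5 ± 0.716 to 69.5 ± 2.78 CPM (1.51, SE 0.06, adjusted p = 4.64e-11). MECOM, a zinc finger regulator of blood stem cells, rose from 0.922 ± 0.0972 to 4.63 ± 0.251 CPM (2.32, SE 0.15, adjusted p = 4.00e-09). ELK3, a repressor of the ETS family, rose from 6.18 ± 0.709 to 16.6 ± 1.18 CPM (1.42). GLIS2, a zinc finger factor related to the GLI proteins, rose from 5.33 ± 0.312 to 12.3 ± 1.46 CPM (1.21). In the other direction, PNN, which encodes the nuclear speckle protein pinin, fell from 238 ± 9.57 to 136 ± 5.92 CPM (-0.81). KLF3, a Krüppel-like repressor, fell from 50.03 ± 1.36 to 26.3 ± 2.94 CPM (-0.93). Adjusted p for the last 4 genes was between 1.17e-08 and 1.11e-07. ZFPM2 (1.06), HIC1 (1.16) and SOX6 (1.12) were the other genes that rose, and RBBP8 (-0.74), which acts in DNA end resection, and KLF12 (-3.46) the other genes that fell, all named after their values were seen. KLF12 was low in both lines, with 75, 88 and 54 counts in LNCaP and 4, 11 and 5 in LNCaP-enzaR. HIC1 (0.360 and 0.806 CPM) and SOX6 (0.529 and 1.15 CPM) were also low in LNCaP and LNCaP-enzaR. The log2 fold change of HIC1 was 0.90 without the first and 1.63 without the second parental library. Among the factors whose peptide sites are shown above, MECOM and GLIS2 were thus higher and KLF12 lower.

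Modifiers of CtBP protein were led by a kinase. Of 6 listed genes, 2 rose, 1 fell and 3 were not called (50%, against 42.7% of all genes), with a median log2 fold change of 0.21. PAK1, a kinase that phosphorylates CtBP1, rose from 7.75 ± 0.366 to 38.4 ± 1.39 CPM (2.31, SE 0.07, adjusted p = 3.19e-12). MAPK8, a stress-activated kinase that acts on CtBP, fell from 48.7 ± 1.02 to 30.3 ± 1.41 CPM (-0.69, SE 0.06, adjusted p = 2.38e-07). Phosphorylation was not measured.

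Genes known as repressed by CtBP did not share a direction. Of 10 tested, 2 rose, 3 fell and 5 were not called (50%, against 42.7% of all genes), and their median log2 fold change was 0.04. The cell cycle inhibitor CDKN1A rose from 172 ± 14.6 to 442 ± 37.6 CPM (1.36, SE 0.07, adjusted p = 8.20e-10). The luminal keratin KRT8, which has many processed pseudogenes and is therefore less certain, rose from 397 ± 19.6 to 886 ± 122 CPM (1.16, SE 0.08, adjusted p = 1.31e-08). BRCA1, which acts in homologous recombination, fell from 91.9 ± 4.25 to 25.7 ± 3.16 CPM (-1.84, SE 0.08, adjusted p = 1.07e-10). PMAIP1, a pro-apoptotic gene, fell from 24.2 ± 2.67 to 10.4 ± 1.59 CPM (-1.22, SE 0.11, adjusted p = 1.95e-07). BAX, another pro-apoptotic gene, also fell (-0.71), while the epithelial cadherin CDH1, a textbook target of CtBP, was at 404 and 540 CPM (0.42) and under the fold limit. Both were named after their values were seen. Of 3 genes known as activated with CtBP, the exchange factor TIAM1 rose from 19, 4 and 5 counts to 50, 29 and 48 (2.12, SE 0.53, adjusted p = 0.00277), and its log2 fold change was 3.08 without the first parental library. CCND1, which encodes cyclin D1, was at 359 ± 5.81 and 255 ± 11.01 CPM (-0.49) and under the fold limit, and ABCB1 had 0, 0 and 0 counts in LNCaP and 3, 0 and 6 in LNCaP-enzaR.

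**Figure D3:**
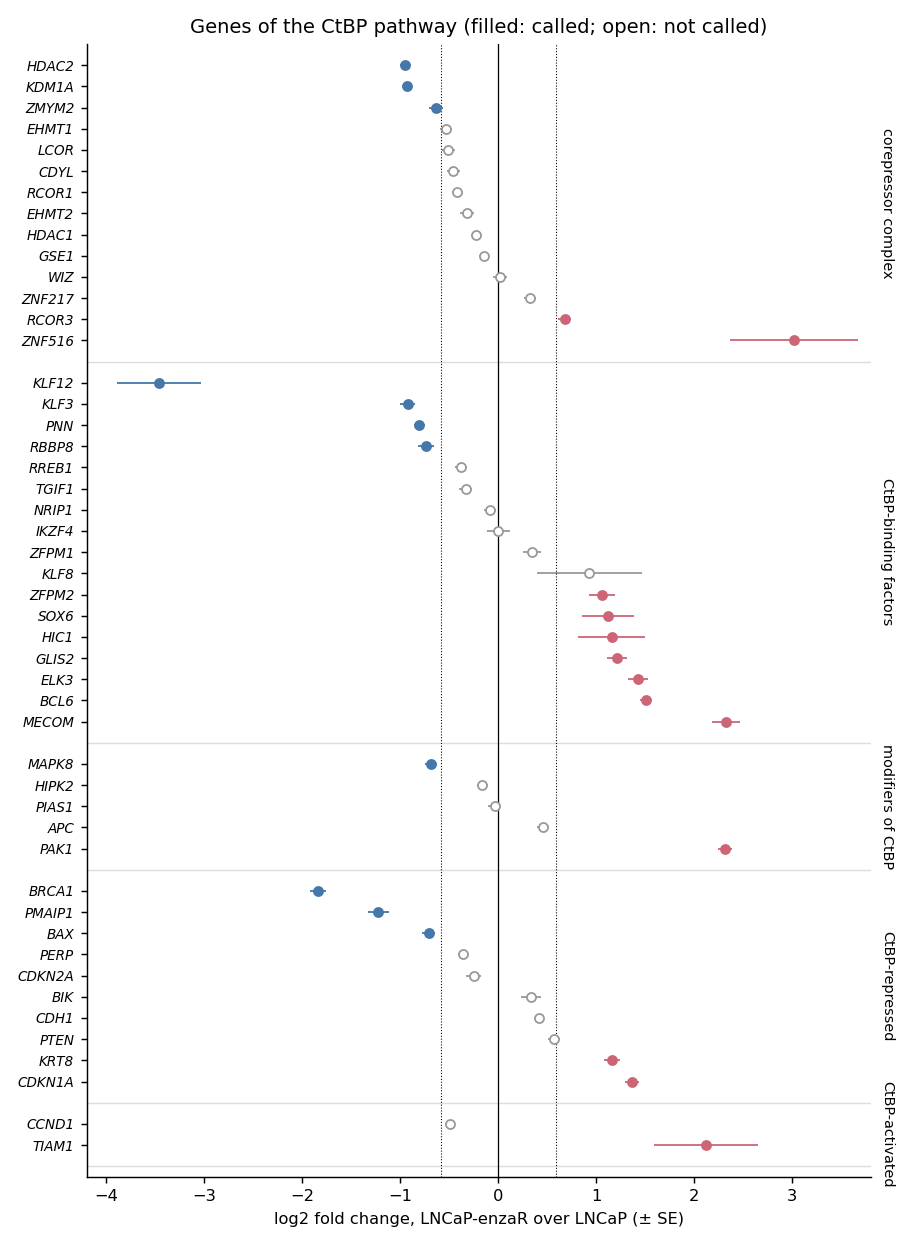
Log2 fold change of LNCaP-enzaR over LNCaP for the tested genes of the CtBP lists, 1 gene not being shown, with SE bars from the edgeR fit. Filled points passed the adjusted p and fold limits (red higher, blue lower), open points did not, and dotted lines mark the 1.5-fold limit. Complex genes lie mostly left of 0, from HDAC2 at -0.95 to ZNF516 at 3.02, and the other groups lie on both sides.

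Genes that resemble the members in sequence or in name did not follow them as a group. PHGDH, which encodes the serine synthesis dehydrogenase whose fold CtBP resembles, fell from 711 ± 22.5 to 273 ± 25.0 CPM (-1.38, SE 0.07, adjusted p = 1.93e-10). GRHPR, another dehydrogenase of that family, was at 120.0 and 156 CPM (0.38) and not called. RAI1 and RAI14 share with RAI2 only the name given to genes induced by retinoic acid. They were at log2 fold changes of 0.39 and 0.04 and were not called, and GPRC5A, once named RAI3, was too low to be tested.

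The tested genes within 1 Mb of each member were listed to place the differences in their genomic context. Around RAI2, 3 of 8 neighbours rose, 1 fell and 4 were not called, beside 42.7% of all tested genes called, with a median log2 fold change of 0.22. The nearest, SCML1 at 45.1 kb, was at 29.1 and 32.9 CPM (0.17) and not called, and it is named for its position. NHS, the gene of Nance-Horan syndrome at 64.1 kb, had 1, 1 and 9 counts in LNCaP and 174, 236 and 246 in LNCaP-enzaR (5.77, SE 0.44, adjusted p = 2.97e-08), and without the third parental library its log2 fold change was 7.60. REPS2, an endocytosis gene at 647 kb, rose from 8.63 ± 0.321 to 30.7 ± 2.69 CPM (1.83). SCML2 at 378 kb, named after its values were seen, fell from 24.1 ± 2.21 to 11.5 ± 0.951 CPM (-1.07).

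Around CTBP1, 17 of 47 neighbours rose, 7 fell and 23 were not called (median 0.47). They were led by the spindle gene TACC3 (194 to 74.5 CPM, -1.38), the receptor gene FGFRL1 (210 to 659 CPM, 1.65) and the histone methyltransferase gene NSD2 (247 to 105 CPM, -1.24). Around CTBP2, 7 of 22 rose, 3 fell and 12 were not called (median 0.19). Here the metalloprotease gene ADAM12 rose from 0.457 to 7.57 CPM (4.06), the phosphatase gene LHPP from 6.90 to 26.7 CPM (1.95) and OAT, which encodes ornithine aminotransferase, from 13.6 to 33.5 CPM (1.30). In all, 38 of 77 neighbours were called, beside 42.7% of all tested genes. CTBP2 was lower, while its 3 neighbours with the smallest p, at 366 to 851 kb, were higher. The 3 called neighbours that were lower were BCCIP at 662 kb (-0.88), RP11-151A10.3 at 1.21 kb (-1.22) and RP11-59C5.3 (-0.85), which overlaps CTBP2. RP11-151A10.3 and RP11-59C5.3 were low, at 0.535 and 1.41 CPM in LNCaP, and all 3 were named after their values were seen.

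**Figure D4:**
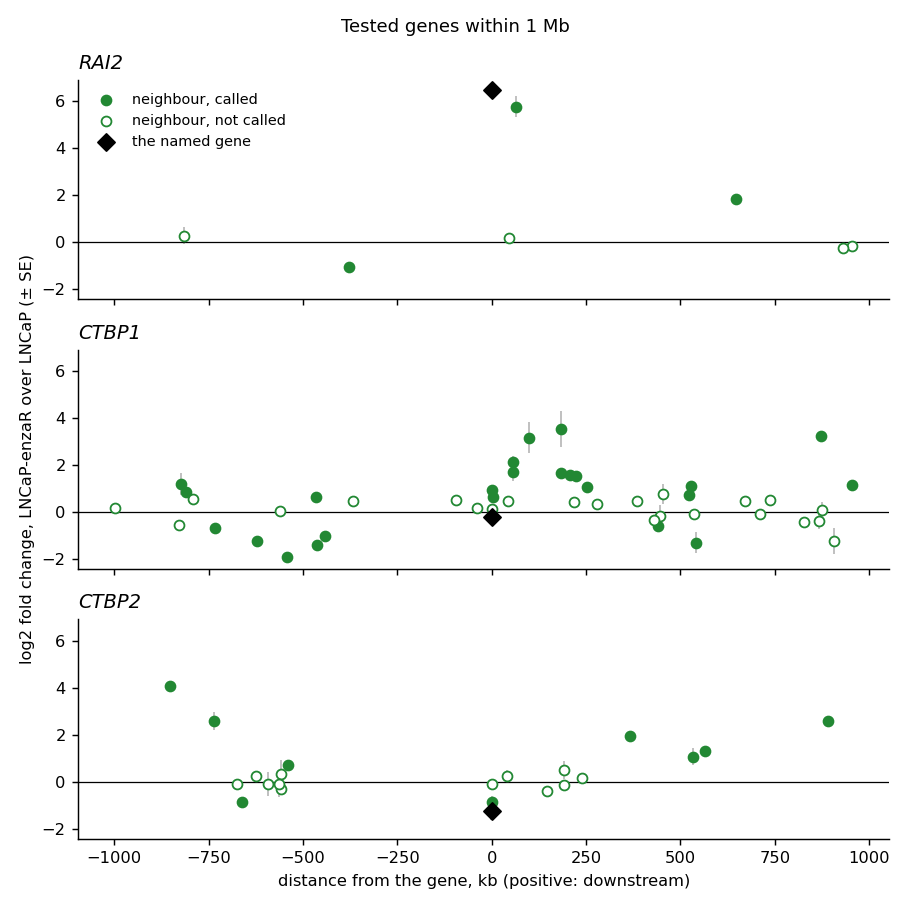
Log2 fold change (SE bars) of tested genes within 1 Mb of RAI2, CTBP1 and CTBP2, 1 neighbour of RAI2 not being shown, against distance in kb, with positive distance downstream of the member. Diamonds are the members, filled circles are called neighbours and open circles are not called. Near RAI2 (6.49), NHS stands at 5.77 while SCML1, which is closer, stands at 0.17.

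Patterns like those of RAI2 and CTBP2 were common when the size of the difference is left aside. Over the 6 libraries, 10182 protein-coding genes with a mean of at least 5 CPM were compared by the correlation of log2 CPM. This is a description, and for RAI2 and CTBP2 the correlation is mostly set by the difference between the lines. It does not measure the size of that difference. RAI2 was most like NMNAT2, an NAD synthesis enzyme of neurons (r = 0.9999, 7.78 to 60.5 CPM), HADHA, of mitochondrial fatty acid oxidation (205 to 478 CPM), and BCL2L13, of the BCL2 family (116 to 182 CPM). A correlation of at least 0.99 with RAI2 was reached by 947 candidates (9.30%). CTBP2 was most like NFE2L3, SORBS2 and MFHAS1, all lower in resistant cells, and 1412 candidates (13.9%) reached 0.99. CTBP1, whose difference between the lines was smaller, had 4 candidates at that level. The first of them were DDIT4 (r = 0.998), CSNK2B (0.998) and MRPL57 (0.992). Like CTBP1 (152.2, 137.9 and 136.8 CPM), each was higher in LNCaP-enzaR 1 than in the other resistant libraries. DDIT4 was at 247, 204 and 200 CPM there. A high correlation with CTBP1 thus also follows the spread between resistant libraries.

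The libraries were checked for their cell type. All 9 luminal prostate markers were above 3 counts, with a summed level of 4802 to 4938 CPM in LNCaP and 3130 to 3428 CPM in LNCaP-enzaR. Of 3 basal markers, KRT5 and TP63 were at or below 3 counts, and the sum was at most 1.71 CPM. Fibroblast markers (4 of 5 above 3 counts, with no row named COL1A2) summed to 14.3 to 17.3 CPM in LNCaP and 6.50 to 7.71 CPM in LNCaP-enzaR. Endothelial markers (2 of 3, CDH5 not) summed to 5.47 to 6.10 and 3.93 to 4.35 CPM, and immune markers (3 of 4, CD3E not) to at most 0.184 CPM. The sums of all these groups except the immune markers were lower in LNCaP-enzaR. The basal sum was 0.923 to 1.71 CPM in LNCaP and 0.433 to 0.800 CPM in LNCaP-enzaR, almost entirely from KRT14 (called lower, -1.18). Luminal and fibroblast markers differed in direction among themselves. Of the luminal markers, KLK3 fell (-3.08) and KRT8 rose (1.16), while KRT18, EPCAM and TMPRSS2 were not called. Of the fibroblast markers, COL1A1 fell (-1.64) and PDGFRB rose (1.43), and the endothelial sum was almost entirely VWF (5.74 and 4.15 CPM, not called). Their part in the differences described was not tested.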

How the data were processed

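Polyadenylated RNA of 3 flasks per line was sequenced by the authors as paired-end reads, trimmed with Cutadapt, aligned to GRCh38 with STAR and counted per gene with featureCounts. The deposited values are raw counts per gene, without normalization. Strand and multi-mapping settings are not given in the sources used here. Of the table's genes, 99.8% were found in GENCODE release 44, used for strand, length, overlap and coding sequence, and 91.4% of these had the same coordinates.

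Counts were filtered with filterByExpr (19711 genes, 99.96% of counts), scaled by TMM and tested by the robust quasi-likelihood F-test of edgeR 4.0.16 in R 4.3.3, with Benjamini-Hochberg adjustment over all tested genes. Calls needed an adjusted p not above 0.05 and a 1.5-fold difference, the limits of the study, which used DESeq2. The script was tested on simulated data. Each line is represented by its flasks, so p-values measure the spread between flasks of 1 line.

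The members and lists were chosen with earlier results of these data known. Genes were named by a rule: all genes starting with CTBP or RAI2, the 4 complex, 6 binder, 3 modifier and 4 repressed genes and 3 neighbours per member with the smallest p, all of the shorter lists, and the 3 genes most like each member. Of these, 1 modifier and 1 neighbour of RAI2 are counted but not reported here. Other genes are named as chosen after their values. Alternatives were DESeq2 1.42.0, other scalings and filters, a replicate block, other folds and lengths, and leaving out each library.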

Additional observations from a re-analysis of the deposited data

How the results depend on the processing

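RAI2 moved little, with a log2 fold change between 6.43 and 6.598 over 15 alternatives, the ends of which came from leaving out single libraries. CTBP1 was at -0.092 and CTBP2 at -1.14 under upper-quartile scaling, which shifted all genes by a median of 0.10 and made 60.9% of the called genes higher, against 54.5%. CTBP2 was at -1.28 with library totals, -1.22 with a minimum of 10 counts per library, and -1.22 among protein-coding genes. Leaving out single libraries gave -0.24 to -0.16 for CTBP1 and -1.26 to -1.23 for CTBP2.

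Without a minimum fold, calls rose to 13 of 14 complex genes, 5 of 6 modifiers, 10 of 10 repressed and 2 of 2 activated genes. With a fold of at least 2 they were 1 of 14 complex genes and 1 of 6 modifiers. The share of all genes called at these folds is not given here, so nothing is read from these counts about the lists. With a minimum of 10 counts per library, 0 activated genes were called by edgeR, since TIAM1 was no longer tested. Within 0.5 Mb, 19 neighbours were called, as fewer genes are in the window. By longest transcript, the ratio of CTBP2 to CTBP1 was 0.440 in LNCaP and 0.212 in LNCaP-enzaR. P-L-D-L-S or A-L-D-L-S was held by 1 member and 7 binding factors.

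Leaving out single libraries gave 4 to 5 called complex genes, 11 binding factors each time, 3 modifiers, 5 to 6 repressed genes, 1 activated gene and 36 to 40 neighbours. The ratio of CTBP2 to CTBP1 was then 0.824 to 0.846 in LNCaP and 0.395 to 0.414 in LNCaP-enzaR.

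With the replicate block, RAI2 was at 6.50, CTBP1 at -0.19 and CTBP2 at -1.25, and 8212 genes were called, 8174 of them shared with the 8425 of the unblocked fit. Equal replicate numbers did not pair the libraries (correlations of deviations -0.04, -0.00103 and -0.04). LNCaP-enzaR 1 stood apart from its replicates, with a chi-square of the counts per degree of freedom of 25.8 and 20.6. The other pairs within a line were at 4.61 to 7.17. Without LNCaP-enzaR 1, CTBP1 was at -0.24 (SE 0.04). DESeq2 called 8321 genes, 8279 of them shared. Alternatives were followed for 50 named genes other than the members, of which 47 kept direction and call in every setting that tested them. Those not followed include HDAC1, WIZ, CDH1, SCML1, SCML2, BCCIP and most cell type markers. ZRANB1 turned to 0.0069 under upper-quartile scaling, where ZMYM2 (-0.53) and NFE2L3 (-0.53) were under the fold limit. Depth limits genes of few counts, such as NHS, ZNF516, KLF12, HIC1, SOX6 and TIAM1. The cause of other shifts was not tested.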
